A study of Mus musculus with 6 samples.

Results

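The miR-203 and miR-3073 rows of a mouse liver miRNA table are described here. They were all rows whose name begins with mmu-miR-203-, mmu-miR-3073a- or mmu-miR-3073b-, whichever arm of the hairpin they name. This gave 6 rows of the 1039 in the table, of which 762 carry mouse miRNA names: mmu-miR-203-3p, mmu-miR-203-5p, mmu-miR-3073a-3p, mmu-miR-3073a-5p, mmu-miR-3073b-3p and mmu-miR-3073b-5p, written below without the prefix. The locus was chosen by the measured RPM of these rows in the 6 libraries, in which the miR-3073b rows sit at 2 levels. The miR-3073b rows and every sum or share that includes them are therefore given as a description, and no test of them is read. For the other members the J group was set against the M group in a fit over all miRNAs. Their values were known when the locus was chosen, so this comparison is not independent of the choice.

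Small RNA from the liver of 6 mice was sequenced, 3 in the J group and 3 in the M group. All were wild type ICR mice, an outbred stock, with an age of 30 weeks in the labels, and all ate a high-fat diet throughout. After 12 weeks of that diet the J group was given JTXK granule, a Chinese herbal preparation, by gavage for 8 weeks, and the M group was given sterile water. Each library came from a different mouse, so the spread within a group is the spread between mice. No library from mice on a standard diet was analysed here.

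A miRNA is cut from a hairpin RNA, which can give a mature strand from its 5′ arm and another from its 3′ arm. The mature strand pairs with target mRNAs mainly through its seed, bases 2 to 8 from the 5′ end. miR-203 is known as an abundant miRNA of skin and other epithelia, where its 3p strand restrains the progenitor factor p63, while liver parenchyma is dominated by miR-122. DNA opposite a miRNA gene can also be transcribed, and since a hairpin's reverse complement folds as well, both strands of a locus can be annotated as miRNA genes; miR-3073a and miR-3073b are such a pair.

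The mature sequences of the 6 members are shown because the question of arm and strand turns on them. They are those of RefSeq on GRCm38.p6, written 5′ to 3′ with the seed in capitals, and all are 22 bases long. miR-203b-3p, annotated on the strand opposite miR-203-5p, is added for comparison, and it has no row of its own among those analysed.
miR-203-3p, chr12:112130927-112130948, plus strand: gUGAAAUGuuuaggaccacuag
miR-203-5p, chr12:112130889-112130910, plus strand: aGUGGUUCuugacaguucaaca
miR-203b-3p, chr12:112130887-112130908, minus strand: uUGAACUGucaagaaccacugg
miR-3073a-3p, chr12:112109290-112109311, plus strand: uUGAUGUCcacugugaccauag
miR-3073a-5p, chr12:112109252-112109273, plus strand: gUGGUCACaguuggcgccagcc
miR-3073b-3p, chr12:112109250-112109271, minus strand: cUGGCGCCaacugugaccacug
miR-3073b-5p, chr12:112109288-112109309, minus strand: aUGGUCACaguggacaucaacc

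miR-3073a-5p and miR-3073b-5p share the seed UGGUCAC and have the same base at 16 of 22 positions, although they come from opposite strands. No other mouse miRNA of the table with a RefSeq sequence has the seed of any of the 6 members. miR-3073a-3p lies opposite miR-3073b-5p, and miR-3073a-5p lies opposite miR-3073b-3p, with 20 complementary bases in each case. A read of 22 bases from this locus therefore shows by its sequence which strand it came from.

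On GRCm38.p6 the Mir3073a hairpin spans chr12:112109238-112109322 on the plus strand and is 85 bases long. The Mir3073b hairpin, 60 bases long, spans chr12:112109250-112109309 on the minus strand and lies wholly inside it. Both are in intron 1 of Aspg, the gene of an asparaginase-like enzyme, which is on the plus strand, so Mir3073a is in the sense and Mir3073b in the antisense direction of Aspg. The intron spans chr12:112106974-112112191 in each of the 5 GENCODE transcripts that cover the hairpin, and the hairpin overlaps 0 exons of Aspg. Mir203 spans chr12:112130880-112130955 on the plus strand and is intergenic. It begins 3321 bases past the end of Aspg in GENCODE, 21558 bases after the end of Mir3073a and 13019 bases before Kif26a in RefSeq. The minus strand of Mir203 carries the 60-base gene Gm51289 at chr12:112130887-112130946, which gives miR-203b.

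**Figure D1:**
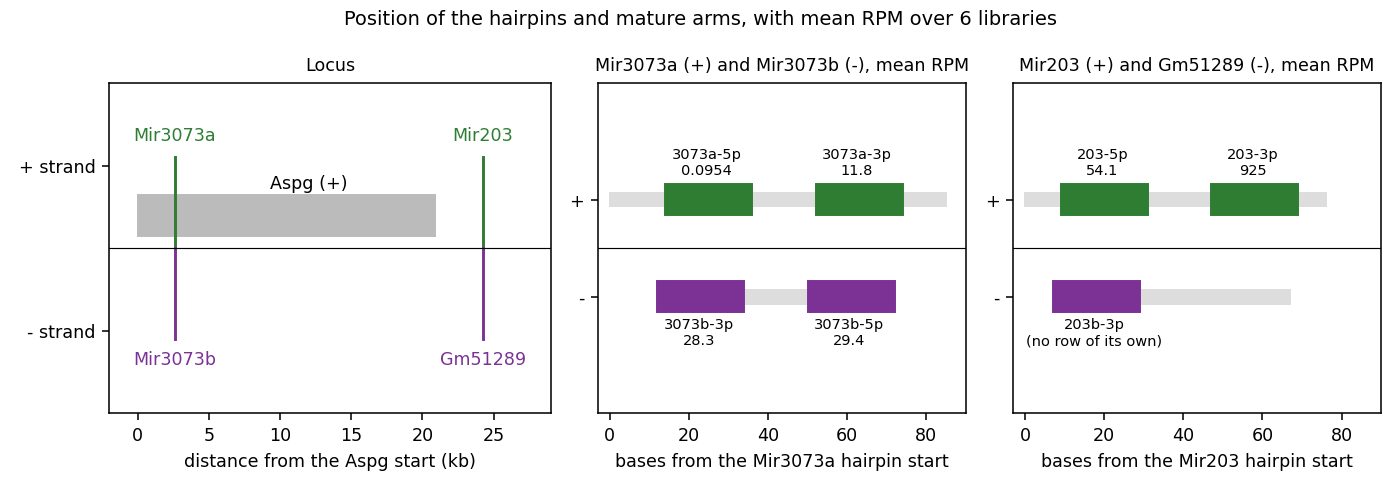
Position of the Mir203 and Mir3073 hairpins beside Aspg (left, distance in kb from the Aspg start) and of the mature arms within the hairpins (middle and right, bases from the hairpin start), with plus-strand features in green above the line and minus-strand features in purple below it. The number at each arm is the mean RPM over the 6 libraries of the row of that name, from 925 for miR-203-3p to 0.0954 for miR-3073a-5p.

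The nearest listed miRNA gene before the locus is Mir1247, 1831109 bases away, and the nearest after it is Mir153, 5119862 bases away. miR-1247-3p ranged from 0.356 to 4.64 RPM, miR-1247-5p from 0.356 to 1.95 RPM and miR-153-3p from 0 to 0.356 RPM. Among the listed mouse rows with a RefSeq sequence (653 of 762), the 6 members were thus the only ones over a stretch of several megabases. The other rows were not placed on the genome. RPM are the reads of a miRNA scaled to a total of 1000000 miRNA reads per library. The 6 libraries held from 2626353 to 4314134 miRNA reads, so 1 read was worth 0.232 to 0.381 RPM and a count of 0 allows up to 3 reads, or 0.695 to 1.14 RPM.

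Over all rows, 548 miRNAs, 495 of them with mouse names, had a mean above 1 RPM in at least 1 group and were tested by limma on log2(RPM + 1). A miRNA was called when its log2 fold change exceeded 0.3 in size with p under 0.05 before adjustment, which held for 29 of the 548 (5.29%), 8 of them higher (1.46%) and 21 lower (3.83%) in the J group. After median-of-ratios scaling that split was 17 higher and 13 lower, and after quantile normalization 20 higher and 11 lower. The median log2 fold change over all 548 was -0.13, and it was -0.04 and 0.08 after the 2 scalings. None of the 548 had a Benjamini-Hochberg adjusted limma p under 0.05, and 29 had an unadjusted p under 0.05. The hepatocyte markers miR-122-5p, miR-192-5p and miR-194-5p summed to 328849 to 379599 RPM in the 6 libraries, so the label liver matched its defining miRNAs in each.

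miR-203-3p carried most of the reads of the locus. It was at 1101, 1015 and 925 RPM in J group replicates 1, 2 and 3 and at 711, 781 and 1014 RPM in M group replicates 1, 2 and 3. Its mean over the 6 libraries was 925 RPM, rank 58 of the 762 mouse miRNAs, and its highest library was 1.55 times its lowest. The groups overlapped, since M group replicate 3 lay above J group replicate 3 and level with J group replicate 2. The J group mean was 1014 ± 87.6 RPM and the M group mean 836 ± 159 RPM (SD, n = 3 each). The log2 fold change was 0.29 with a standard error of 0.20 and an interval of -0.18 to 0.76 (95%, limma), and its adjusted limma p was 0.71. The interval includes 0, and the value was 0.18 without M group replicate 1 and 0.44 without M group replicate 3.

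miR-203-5p, the row named for the other arm, was at a level about an order of magnitude lower. It was at 66.5, 52.8 and 56.0 RPM in J group replicates 1 to 3, with M group replicates 1 to 3 at 26.7, 42.8 and 80.1 RPM. The M group held both the lowest and the highest library, with a ratio of 3.0 between them, while the J group lay in between. The means were 58.4 ± 7.20 RPM for the J mice and 49.8 ± 27.4 RPM for the M mice (SD, n = 3 each), and the mean over all libraries was 54.1 RPM, rank 168. The log2 fold change was 0.36 with a standard error of 0.40 and an interval of -0.59 to 1.30 (limma, adjusted p = 0.79). Without M group replicate 1 it was -0.011, so this library decided its sign, and without M group replicate 3 it was 0.76.

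miR-3073a-3p, from the sense strand of the Aspg intron, was at 10.4, 17.6 and 14.6 RPM in J group replicates 1 to 3, with M group replicates 1 to 3 at 5.33, 11.1 and 11.4 RPM. It rested on 250 reads in all, with as few as 14 in M group replicate 1. M group replicate 1 was again lowest, and J group replicate 1 lay below M group replicates 2 and 3, so the groups overlapped. Its means were 14.2 ± 3.59 RPM for the J mice and 9.29 ± 3.43 RPM for the M mice (SD, n = 3 each). The log2 fold change was 0.60 with a standard error of 0.37 and an interval of -0.28 to 1.47 (limma, adjusted p = 0.71), and without M group replicate 1 the value was 0.28. miR-3073a-5p had 1 read in J group replicate 2, 1 read in M group replicate 2 and 0 in the other 4 libraries, and it was not tested.

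miR-3073b-3p, from the antisense strand, did not vary around a single level. It was at 1.62, 58.1 and 3.56 RPM in J group replicates 1 to 3, that is 7, 208 and 10 reads. In M group replicates 1 to 3 it was at 40.4, 63.0 and 3.03 RPM, that is 106, 215 and 13 reads. J group replicate 2 and M group replicates 1 and 2 were high, and the remaining 3 libraries were low. Each treatment group thus held both levels, and the highest library was 38.8 times the lowest.

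The other arm, miR-3073b-5p, divided the libraries in the same way. It was at 3.01, 64.8 and 2.14 RPM in J group replicates 1 to 3, from 13, 232 and 6 reads. It was at 33.1, 70.9 and 2.33 RPM in M group replicates 1 to 3, from 87, 242 and 10 reads. The same 3 libraries were high, and the ratio of the highest to the lowest was 33.2. Both high levels and both low levels rest on reads of a different sequence, since the arms share no seed and lie at opposite ends of the hairpin.

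**Figure D2:**
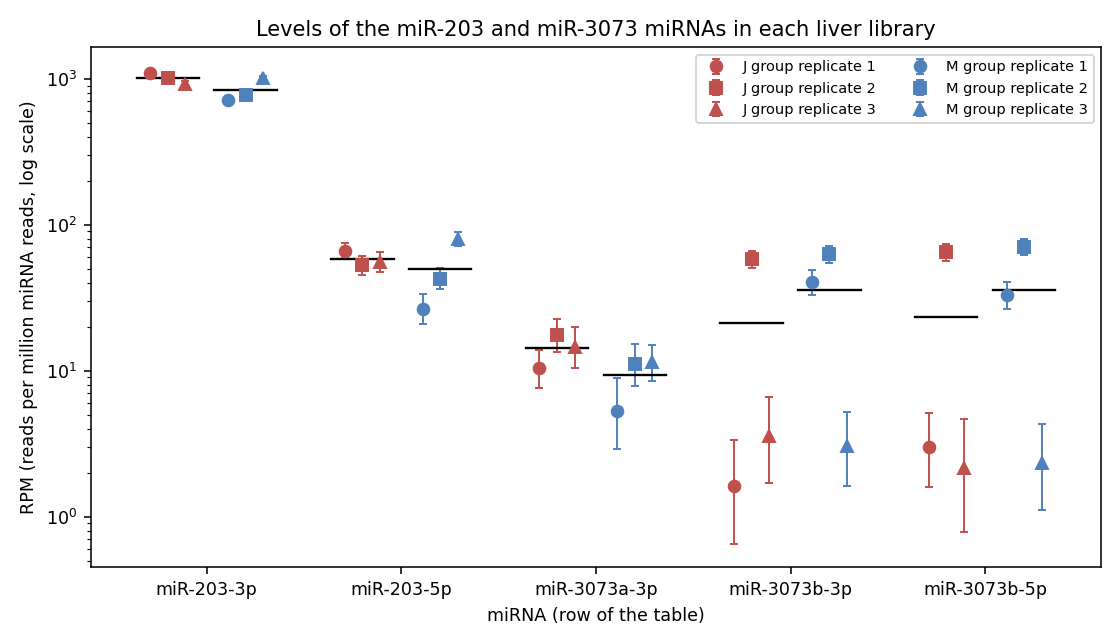
RPM (log axis) of the 5 members in the fit in each of the 6 libraries, J group in red and M group in blue, with the replicate shown by the symbol, the group mean by a black line and the exact 95% counting interval by error bars. miR-203-3p stays between 711 and 1101 RPM, while both arms of miR-3073b are at 33.1 to 70.9 RPM in 3 libraries and at 1.62 to 3.56 RPM in the other 3.

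Because both levels occurred in both groups, the SDs of miR-3073b were above the group means in the J group and close below them in the M group. miR-3073b-3p averaged 21.1 ± 32.0 RPM for the J mice and 35.5 ± 30.3 RPM for the M mice, and miR-3073b-5p 23.3 ± 35.9 and 35.5 ± 34.4 RPM (SD, n = 3 each). The log2 fold change of miR-3073b-3p was -1.30 with a standard error of 1.40 and an interval of -4.59 to 1.98 (limma). For miR-3073b-5p it was -1.10 with a standard error of 1.46 and an interval of -4.53 to 2.33 (limma). These intervals include changes of many fold in either direction. Their width follows from the split by which the rows were chosen, so nothing about the treatment is read from them. The value moved with single libraries in both directions. Without J group replicate 2 it was -2.67 for the 3p and -2.50 for the 5p row, and without M group replicate 3 it was -2.53 and -2.40. It was nearer to 0 without J group replicate 1 (-0.42 and -0.49), J group replicate 3 (-0.82 and -0.31), M group replicate 1 (-0.85 and -0.72) or M group replicate 2 (-0.53 and -0.18), and by edgeR on the recovered reads (-0.71 and -0.57).

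Of the 5 members in the fit, 0 were called, against 5.29% of all 548 miRNAs, and in 0 of them did the groups not overlap, against 13.5% of all. None was called under any of the 16 alternative settings, where the smallest unadjusted limma p of miR-203-3p, miR-203-5p and miR-3073a-3p was 0.0533. Nothing is read from this for the miR-3073b rows, which were chosen by their levels. The median log2 fold change of the 5 was 0.29, with 3 members above 0 and 2 below, against -0.13 over all. Their signs were the same under both other scalings.

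**Figure D3:**
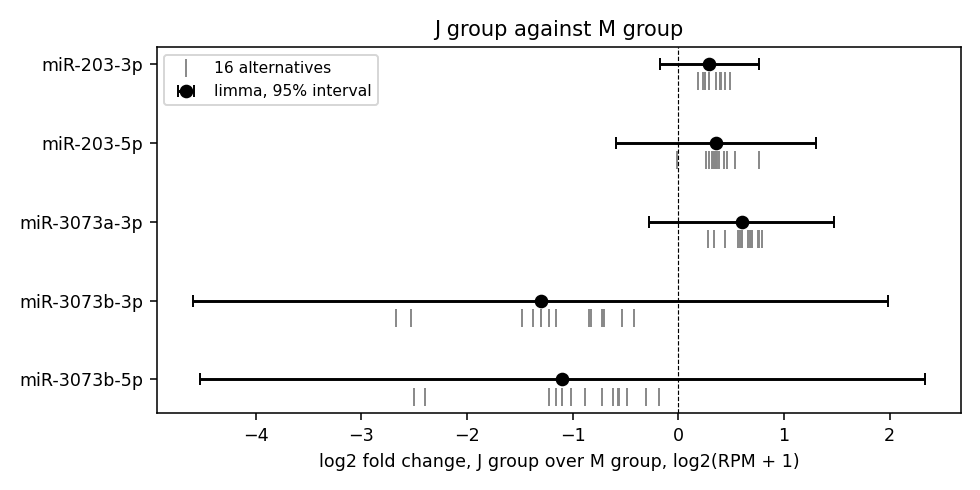
Log2 fold change of the 5 members in the fit (J group against M group) with the 95% interval of the limma fit, and the values under 16 alternative settings as grey ticks. Each interval includes 0, and those of miR-3073b are the widest, from -4.59 to 1.98 for the 3p row and from -4.53 to 2.33 for the 5p row.

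To set the split of miR-3073b beside the other miRNAs, the libraries were ordered by log2(RPM + 1) for each of the 495 mouse miRNAs tested. The largest step between neighbours that left at least 2 libraries on each side was then taken. The step of miR-3073b-3p was 3.18, between 3.56 and 40.4 RPM, and that of miR-3073b-5p was 3.09, between 3.01 and 33.1 RPM. As ratios of RPM these are 11.3 and 11. They ranked 1 and 2 of 495, only these 2 were over 2, and 12 miRNAs were over 1. The measure was chosen after the values were seen, for rows picked for their split, so the ranks describe that choice and add no evidence to it. The next was miR-377-3p at 1.18, and the median was 0.32. The other tested members were not at 2 levels in this sense: the steps of miR-203-3p, miR-203-5p and miR-3073a-3p were 0.24, 0.30 and 0.33, at ranks 309, 273 and 231. With 10 in place of 1 added before the log, the miR-3073b rows still ranked 1 and 2, with steps of 1.89 and 1.73.

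**Figure D4:**
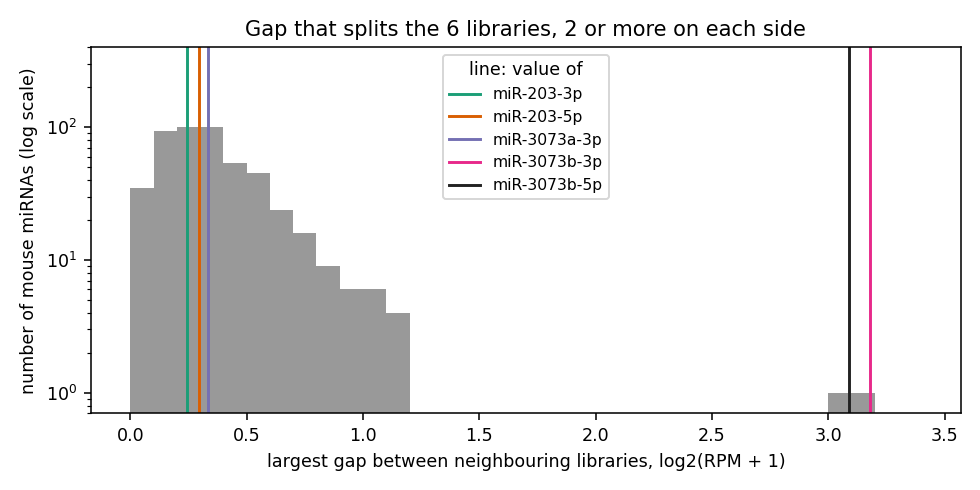
Number of mouse miRNAs (log axis) by the largest step, in log2(RPM + 1), between neighbouring libraries with at least 2 libraries on each side. Lines mark the 5 members in the fit: both miR-3073b rows stand at 3.18 and 3.09, beyond the next miRNA at 1.18, and the other 3 members lie near the median of 0.32.

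The 3 libraries that were high for miR-3073b were also the 3 highest for 28 of the 495 mouse miRNAs (5.66%), the miR-3073b rows included. There are 20 ways to take 3 of 6 libraries, so over all such sets the mean share is 1 in 20, and the count is close to it. Among these 28, a step over 1 was seen for both miR-3073b rows and for miR-2137, at 1.04. The depths overlapped between the levels: the high libraries held 3582452, 2626353 and 3410933 reads and the low ones 4314134, 2805177 and 4295665.

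The sense and antisense strands of the Aspg intron were then compared within each library. On the minus strand lay 30.8% of the reads of Mir3073a and Mir3073b in J group replicate 1 (exact binomial interval 19.9 to 43.4%), 87.5% in replicate 2 (84.3 to 90.3%) and 28.1% in replicate 3 (17.0 to 41.5%). In M group replicates 1 to 3 it was 93.2% (88.9 to 96.3%), 92.3% (89.6 to 94.5%) and 31.9% (21.4 to 44.0%). The antisense strand therefore gave most of the reads in 3 libraries and fewer than the sense strand in the other 3. This restates the split by which the locus was chosen and is no test of it. The intervals, like the floors above, cover counting error only, since the reads have no molecular identifiers. The sense member miR-3073a-3p had 63, 14 and 38 reads in the 3 libraries where the antisense strand dominated and 45, 41 and 49 in the others, so the share followed the antisense reads. By group the share was 48.8 ± 33.6% in the J group and 72.5 ± 35.1% in the M group (SD, n = 3 each), given with no test because it rests on the same split.

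**Figure D5:**
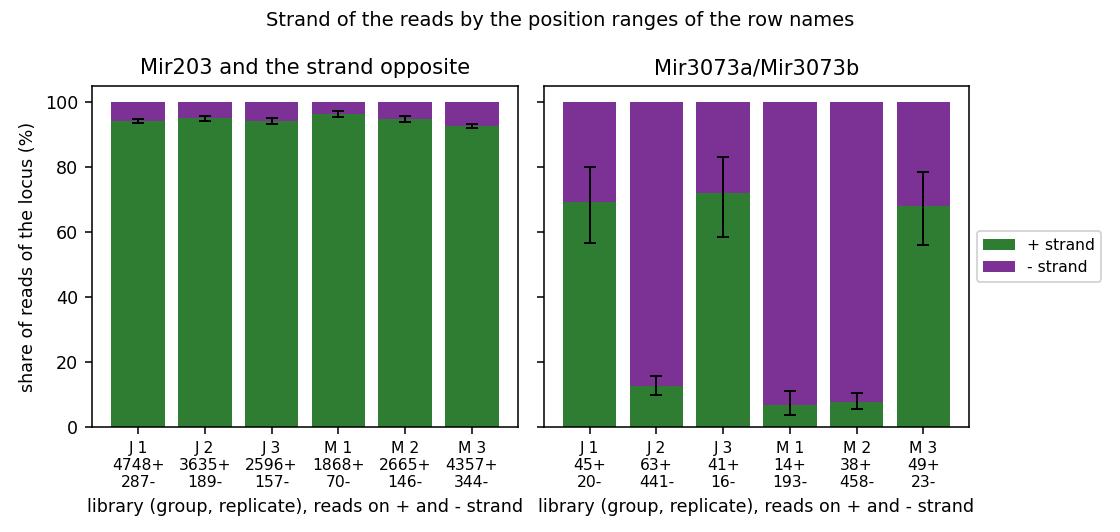
Share of reads (%) on the plus strand (green) and minus strand (purple) for Mir203 with the strand opposite it (left) and for Mir3073a/Mir3073b (right) in each library, with rows placed by the position range in their names, exact 95% binomial intervals as bars and the reads of each strand under the library. The minus strand of Mir3073 holds 87.5 to 93.2% in 3 libraries and 28.1 to 31.9% in the other 3, whereas at Mir203 it holds 3.61 to 7.32% in all 6.

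The arms of Mir3073b were about equally frequent at either level. The 3p row held 47.3, 54.9 and 47.0% of the Mir3073b reads in the 3 high libraries. In the low ones it held 35.0, 62.5 and 56.5%, where 16 to 23 reads leave wide intervals, such as 15.4 to 59.2% in J group replicate 1. The share was 48.3 ± 13.8% in the J group and 52.8 ± 5.07% in the M group (SD, n = 3 each). Of the rows named for Mir3073a, the 3p row had 250 reads and the 5p row 2.

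At Mir203 the question of arm or strand depends on how the row name is read. Most mouse rows add a range of positions to the miRNA name. The sources used here do not define it, and it was read as the part of the mature sequence that the row covers. For all 496 rows with a forward range and a RefSeq sequence, the range lay within the mature miRNA. The same held for the rows with a sequence whose range runs backward, so this does not decide between readings. The range of miR-203-5p runs backward, from base 20 to base 1. Read as the opposite strand, these 20 bases are the first 20 of miR-203b-3p, shown here in capitals:
miR-203b-3p, bases 1 to 20: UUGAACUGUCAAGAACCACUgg
The row of miR-3073a-5p also runs backward, from base 21 to base 3. Its opposite strand shares 18 bases with miR-3073b-3p, shown in capitals:
miR-3073b-3p, bases 1 to 18: CUGGCGCCAACUGUGACCacug

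Of the 619 mouse rows with a range, 42 ran backward. A RefSeq sequence was at hand for 34 of these, and 15 of the 34 lay opposite an annotated mature miRNA, 10 of them wholly inside it. The table names 12 pairs of miRNA genes on opposite strands with rows for both, and Mir5615-1 and Mir5615-2 share their rows. Among the other 11 pairs, placing the backward rows on the opposite strand left 8 with all reads on a single strand. The 5 pairs with the highest summed mean were among these 8: Mir126a with Mir126b (12144 RPM), Mir24-2 with Mir3074-2 (5071 RPM), Mir24-1 with Mir3074-1 (4926 RPM), Mir142 with Mir142b (1314 RPM) and Mir374c with Mir374b (263 RPM). Both Mir24 pairs rest largely on the same miR-24-3p and miR-3074-5p rows, so they are not separate cases. For Mir126a and Mir126b the weaker strand went from 42.3% of the RPM by name to 0 by range. This shift was carried by the backward row of miR-126b-3p (mean 6828 RPM), for which no annotated mature miRNA was found on the opposite strand. The 3 pairs that kept reads on both strands were Mir3073a with Mir3073b, where the weaker strand had 16.9%, Mir3065 with Mir338 (25.7%) and Mir136 with Mir3071 (3.60%). The value of the miR-3073 pair is over the mean of all libraries and is carried by the 3 with high miR-3073b, where the plus strand is the weaker. In J group replicates 1 and 3 and M group replicate 3 the minus strand is the weaker.

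Read by name, the miR-203-5p row is the passenger arm of Mir203. Read by range, it is the antisense miR-203b-3p. Which of the readings holds cannot be told apart without the reads, and the levels of the row are the same under both. It held 5.70, 4.94 and 5.70% of the reads of both miR-203 rows in J group replicates 1 to 3, while M group replicates 1 to 3 had 3.61, 5.19 and 7.32%. The group values were 5.45 ± 0.438% and 5.37 ± 1.86% (SD, n = 3 each; exact permutation test, two-sided, p = 1, the smallest possible with 3 mice against 3 being 0.1). The lowest and highest libraries differed beyond counting error, with exact intervals of 2.83 to 4.54% in M group replicate 1 and 6.59 to 8.10% in M group replicate 3.

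The range of miR-203-3p begins at base 2 of the RefSeq mature sequence. A strand that begins there would have its seed at bases 3 to 9 of the annotated one, GAAAUGU in place of UGAAAUG, shown in capitals:
miR-203-3p, seed from base 2 onward: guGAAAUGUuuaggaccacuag
Such a start was not rare in the table, as 98 of the 496 forward ranges (19.8%) begin after base 1. The row gives 1 value for all its reads, so the share that begins at base 2 was not measured.

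Summed over the 6 rows, the locus gave 1182, 1208 and 1002 RPM in J group replicates 1 to 3, while M group replicates 1 to 3 gave 817, 970 and 1111 RPM. The means were 1131 ± 112 and 966 ± 147 RPM (SD, n = 3 each). The difference was 0.23 on the log2 scale. It was 0.12 without M group replicate 1, and 0.34 without M group replicate 3 or after median-of-ratios scaling. miR-203-3p made up 80.6 to 93.1% of the members' reads in each library, 89.8 ± 5.07% in the J group and 86.3 ± 5.39% in the M group (SD, n = 3 each). The difference moved with single libraries, from 0.638 percentage points without M group replicate 2 to 6.42 without J group replicate 2.

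The order of the members' levels depended on the library. miR-203-3p was highest and miR-3073a-5p lowest in all 6. miR-203-5p was second in J group replicates 1 and 3 and M group replicate 3, whereas in the 3 libraries with high miR-3073b it lay below both miR-3073b rows. miR-3073a-3p stood above both miR-3073b rows in the low libraries and below both in the high ones. miR-3073b-3p and miR-3073b-5p, with means of 28.3 and 29.4 RPM, did not differ beyond their spread. All members are of the same length, so RPM compares them without a length term.

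How the members varied together across the 6 libraries is given as a description by Pearson's r of log2(RPM + 1), over 6 points that share their depth and all rows. It was 0.89 between miR-203-3p and miR-203-5p and 0.98 between the miR-3073b rows. Between miR-3073a-3p and the miR-3073b rows, which come from the same DNA, it was -0.11 for the 3p and -0.09 for the 5p row. miR-3073a-3p had r of 0.65 with miR-203-3p and 0.64 with miR-203-5p, both from the same strand of the chromosome by name. Between the miR-203 and the miR-3073b rows r was negative, at -0.64 and -0.55 for miR-203-3p and at -0.71 and -0.66 for miR-203-5p.

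The mouse miRNAs most like each member were taken by the same r over the same 6 libraries. For miR-203-3p these were miR-7015-3p (0.97), miR-1843b-5p (0.96) and miR-1843a-5p (0.96), and for miR-203-5p miR-574-3p (0.94), miR-1843a-5p (0.93) and miR-99a-3p (0.87). For miR-3073a-3p they were miR-193a-5p (0.997), miR-30d-5p (0.99) and miR-22-3p (0.98). For miR-3073b-3p they were miR-139-3p (0.94), miR-320-3p (0.94) and miR-3057-5p (0.92), and for miR-3073b-5p miR-139-3p (0.94), miR-320-3p (0.91) and miR-802-3p (0.89). These likenesses are of order and not of size. miR-320-3p ranged only from 91.1 to 122 RPM, miR-139-3p from 5.12 to 8.21 RPM and miR-802-3p from 10.9 to 28.4 RPM. miR-3057-5p ranged from 0.233 to 2.35 RPM, near the floor. Outside miR-203-3p at most 1 of 3 names was kept by Spearman's rho or without M group replicate 1.

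Because miR-203 is an epithelial miRNA, the members were set beside lists of miRNAs of other cell types. The 11 epithelial miRNAs, led by miR-200b-3p, miR-96-5p and miR-200a-3p, summed to 1255, 1611 and 3689 RPM in J group replicates 1 to 3, while M group replicates 1 to 3 came to 7385, 4204 and 2120 RPM. Among them only miR-96-5p was called, lower in the J group, with a log2 fold change of -1.60 and a standard error of 0.59 (limma, adjusted p = 0.71). The median log2 fold change of the list was -0.74. miR-203-3p did not rank the libraries as the sum of this list did. From the highest to the lowest library, its order was that of the sum from the lowest to the highest. J group replicate 2 and M group replicate 3 were level within counting error in miR-203-3p. Single miRNAs of the list did not all follow the sum. miR-375-3p was lowest in M group replicate 1 (0.762 RPM) and highest in M group replicate 3 (14.2 RPM).

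The 5 miRNAs of blood-derived immune cells were led by miR-142a-5p, miR-142a-3p and miR-150-5p. They summed to 595, 705 and 866 RPM in J group replicates 1 to 3 and to 4228, 796 and 1080 RPM in M group replicates 1 to 3. Their median log2 fold change was -0.56, with 0 called. Of the 3 red blood cell miRNAs, 2 were listed, miR-144-3p and miR-451a. These summed to 2534 to 9724 RPM, with a median log2 fold change of 0.03 and 0 called. M group replicate 1 thus had the highest epithelial and immune sums together with the lowest miR-203-3p, miR-203-5p and miR-3073a-3p. Its immune sum was carried by miR-142a-5p (3709 RPM) and miR-142a-3p (444 RPM). miR-150-5p was also highest in that library (47.2 RPM), while miR-223-3p (25.1 RPM) and miR-155-5p (3.43 RPM) were not. The part of cell composition in the members' levels was not tested, and in whole liver a change in the number of cells of a type cannot be told apart from a change in RNA per cell. For the libraries with high miR-3073b, J group replicate 2 and M group replicates 1 and 2, the epithelial sums were 1611, 7385 and 4204 RPM and the immune sums 705, 4228 and 796 RPM. For the low libraries, J group replicates 1 and 3 and M group replicate 3, they were 1255, 3689 and 2120 RPM and 595, 866 and 1080 RPM. The 2 highest epithelial sums and the highest immune sum were thus in libraries with high miR-3073b, while those of J group replicate 2 lay below those of J group replicate 3, and their part in the miR-3073b levels was not tested.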

How the data were processed

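Small RNA libraries (NEBNext) of 3 J group and 3 M group livers were sequenced by the authors, who assigned the filtered reads to miRNAs by Rfam and miRBase and scaled each library to its miRNA total (RPM). RPM is the unit of the deposited table. The aligner and the miRBase release are not given in the sources used here. The submitters' processing notes name mm9, whereas positions and sequences here are those of RefSeq GRCm38.p6, matched by miRNA name, so no coordinate of the table was used.

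All deposited RPM values were whole multiples of the RPM of 1 read (tolerance 0.01 read), so the reads were recovered. Groups follow the labels. J and M libraries were compared with limma 3.58.1 (R 4.3.3, lmFit and trended eBayes, two-sided) on log2(RPM + 1) over miRNAs with a mean above 1 RPM in at least 1 group, with Benjamini-Hochberg adjustment over all 548. The fit was tested on simulated data. Such fold changes understate the change of rare miRNAs. Alternatives were an added 0.1 or 10 RPM, no filter or a filter at 10 RPM, median-of-ratios and quantile scaling, RPM without the most abundant miRNA, the recovered reads in edgeR 4.0.16 or in DESeq2 1.42.0, the replicate number as a block, and each library left out. The miR-203-5p share was compared by exact permutation over the 20 assignments. The planned tests of sums and shares that include miR-3073b are not given, because the values of miR-3073b chose the locus. Python 3.11.15, numpy 2.4.6, pandas 2.3.3, scipy 1.17.1 and matplotlib 3.10.9 were used.

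The members, the marker lists and the tests were chosen with earlier results of these data known. Named were all members, the 3 miRNAs most like each, the 5 most abundant opposite-strand pairs, the nearest listed miRNA genes, and of each marker list those called and the 3 most abundant. Also named were miR-375-3p, miR-223-3p and miR-155-5p, as list members that departed from the sum of their list, picked after the values were seen. The reading of row ranges and the measure of the largest step were chosen after the values were seen.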

Additional observations from a re-analysis of the deposited data

How the results depend on the processing

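The count of 29 called miRNAs was 45 by edgeR and ran from 21 to 46 with each library left out, 46 being the count without M group replicate 2. The other settings kept it within 1.5 times. For miR-203-5p the log2 fold change ran from -0.011 to 0.76 with each library left out, changing sign without M group replicate 1. Over all 16 alternatives the other members in the fit kept their sign and were not called, at 0.18 to 0.49 for miR-203-3p, 0.28 to 0.79 for miR-3073a-3p, -2.67 to -0.42 for miR-3073b-3p and -2.50 to -0.18 for miR-3073b-5p. Same-numbered J and M libraries did not deviate together (correlations of 0.045, 0.058 and -0.0059), so the numbers are not known to pair mice. With the replicate number as a block 27 miRNAs and no member were called. The block cannot move a fold change in this balanced design (-1.30 for miR-3073b-3p). The unadjusted limma p went from 0.187 to 0.257, 0.402 to 0.424 and 0.15 to 0.10 for miR-203-3p, miR-203-5p and miR-3073a-3p. Those of the miR-3073b rows are left out because their values chose the locus. Of the 3 miRNAs most like each member, Spearman's rho kept 0 for miR-203-5p, 1 for miR-3073a-3p, 1 for miR-3073b-3p and 0 for miR-3073b-5p, and Pearson's r without M group replicate 1 kept 0, 1, 0 and 1. For miR-203-3p 2 of 3 were kept by either. Placing backward rows on the opposite strand, chosen after the data were seen, moved the J minus M difference in the minus-strand share at Mir203 from 0 to 0.0740 percentage points. The causes were not tested. The steps of the miR-3073b rows ranked 1 and 2 with 10 RPM added, and 2 and 1 without M group replicate 1. Depth limits miR-3073a-5p, with 2 reads in all, and the low level of miR-3073b, with 6 to 13 reads a row.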
